A study of Mus musculus with 4 samples.

Results

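The 9 genes described here encode complement components and receptors, and they were taken by symbol from the 32285 genes of the deposited count matrices. They are C1qa, C1qb and C1qc, C3 and C4b, C3ar1 and C5ar1, and Itgam and Itgb2, and all 9 were found. Their RNA was counted cell by cell in brain cells selected for CD11b, in 4 libraries with 1 library per group. The wild-type groups were labelled IL6 WT (+/+) and the others IL6 KO (-/-), and each label had a sham-operated library and a library taken at day 6 after cerebrovascular injury (CVI). In this injury, low-intensity pulsed ultrasound is applied over a thinned skull after intravenous injection of microspheres. The mice were 8 to 12 weeks old, the tissue was a 4 mm punch of the brain, and cells were taken with CD11b microbeads after myelin removal. One label places the controls 6 days after sham surgery and another calls them uninjured. The injury has a mild and a severe form, and the labels do not say which these mice received, do not give the strain, and do not say whether animals were pooled. The title of the study concerns IL-6 made by monocytes and the rebuilding of damaged brain vessels by microglia, the resident macrophages of the brain.

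Complement is a cascade of proteins that tags cells and debris for removal. In the classical pathway, C1q, a protein built from chains of C1qa, C1qb and C1qc, binds a target and leads to cleavage of C4 and then C3. Fragments of C3 are recognised by complement receptor 3, the pair of the integrin chains Itgam (CD11b) and Itgb2 (CD18), and the small fragments C3a and C5a signal through C3ar1 and C5ar1. In the brain, microglia are the main source of C1q, and C1q, C3 and complement receptor 3 are known for their part in the removal of synapses.

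In mm10, C1qb (chr4:136880129-136886187), C1qc (chr4:136889804-136893065) and C1qa (chr4:136895917-136898803) lie side by side on the minus strand of chromosome 4. C4b (chr17:34728380-34743882) and C3 (chr17:57203970-57228136) are both on the minus strand of chromosome 17. C3ar1 (chr6:122847138-122856161) and C5ar1 (chr7:16246743-16259540) are on the minus strand, and Itgam (chr7:128062640-128118491) and Itgb2 (chr10:77530252-77565708) are on the plus strand. C4b has a close paralogue, C4a, so reads could be split between them.

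The bases just upstream of C1qb and C3 are printed because these genes lie near opposite ends of the levels measured in microglia. RefSeq (GRCm38.p6) gave promoters for 6 of the 9 members, and 250 bases before each annotated start were searched on both strands. The sequences run 5′ to 3′ on the minus strand. Capitals mark GAGGAA, the core bound by the myeloid factor PU.1, in C1qb (chr4:136886201-136886450) and, in C3 (chr17:57228137-57228386), a match to AANNGAAA, the core of interferon regulatory factors, followed by a match to TTGCNNAA, a C/EBP core.
C1qb: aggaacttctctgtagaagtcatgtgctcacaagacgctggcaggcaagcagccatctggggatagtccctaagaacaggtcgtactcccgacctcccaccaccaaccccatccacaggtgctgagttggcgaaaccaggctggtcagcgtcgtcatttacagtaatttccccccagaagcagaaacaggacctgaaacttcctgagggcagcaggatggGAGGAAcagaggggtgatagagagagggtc
C3: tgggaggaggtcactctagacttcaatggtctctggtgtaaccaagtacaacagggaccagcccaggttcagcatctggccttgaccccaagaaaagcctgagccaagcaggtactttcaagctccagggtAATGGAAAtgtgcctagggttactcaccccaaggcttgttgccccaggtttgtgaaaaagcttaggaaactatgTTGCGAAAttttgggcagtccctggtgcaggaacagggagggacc

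The PU.1 core was found once upstream of C1qb (bases -30 to -25 from the start) and of C1qc (-193 to -188), and at 2 places upstream of Itgam (-84 to -79 and -15 to -10). This core occurred in 23.3% of 32851 promoters of the same length. The C/EBP core was found upstream of C3 at -45 to -38 and in 9.56% of all promoters, and an AP-1 match (TGANTCA) upstream of C3ar1 at -22 to -16 and in 6.75%. The short core of interferon regulatory factors, AANNGAAA, was found upstream of C1qc, C3 and C3ar1 and in 21.3% of all promoters. The same core preceded by GA, the form searched first, was in none of the 6 windows and in 2.98% of all promoters, and the STAT motif TTCNNNGAA was in none of them and in 7.02%. The window of C5ar1 held none of the 6 motifs. Positions count from the RefSeq starts. The windows of C1qc (chr4:136892915-136893164) and C5ar1 (chr7:16259339-16259588) lie partly inside the gene spans given above, and that of C3ar1 by a few bases. These are matches of letters and not measured binding.

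After filtering, 7866 cells remained: 984 from the wild-type sham library, 2924 from the wild-type injured, 1376 from the knockout-labelled sham and 2582 from the knockout-labelled injured library. Sets of 4 values below follow this order. The matrices summed to between 15222380 and 40336067 unique molecular identifiers (UMIs, 1 per captured RNA molecule) per library. Cells were classed with marker lists that hold none of the 9 members, which gave 6147 microglia, 499 macrophages marked by Lyz2 and Ms4a7, 267 border macrophages (marked by Mrc1, Pf4 and others) and 255 endothelial cells. Il6 RNA, the product of the targeted gene, was detected in every library at 10.5, 4.57, 26.7 and 21.9 CPM, higher in both knockout-labelled libraries. The knocked-out part of the gene is not given, so this 3′ count does not check the deletion, and these libraries are called knockout-labelled throughout. Both sham libraries had 135 barcodes in common, 23 of them among cells passing the filters, and the smaller member of each of these pairs held 1.56% to 2.20% of the larger one's UMIs. Every other pair of libraries shared 1 or 2 barcodes among such cells.

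Levels are UMIs summed over the cells of a class and divided by all UMIs of the class, in counts per 1000000 UMIs (CPM). Brackets give exact 95% intervals for the counting error, and the spread between animals is not in them. Each group is 1 library, so the groups were not tested against each other and no p-value is given. A gene was called changed at 2-fold or more on the log2 scale with a prior of 10 CPM, provided that 1 of the compared sums reached 20 CPM and that the gene had 50 UMIs or more in all, over the 4 libraries or, between classes of a library, over both classes.

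The C1q genes were among the abundant transcripts of microglia, and all 3 were somewhat higher in the injured libraries. C1qa stood at 7342 CPM and 7612 CPM after sham surgery and at 10683 CPM and 10352 CPM after injury, in the wild-type and knockout-labelled libraries. C1qb stood at 7205 CPM and 7735 CPM after sham surgery and at 9453 CPM and 10194 CPM after injury. C1qc stood at 5639 CPM and 5996 CPM after sham surgery and at 7746 CPM and 7715 CPM after injury. For each chain, both injured libraries lay above both sham libraries. C1qa was 1.46-fold (1.44 to 1.47) higher in the wild-type pair and 1.36-fold (1.35 to 1.37) in the knockout-labelled pair. The corresponding ratios were 1.31 and 1.32 for C1qb, and 1.37 and 1.29 for C1qc. Together the 3 genes made up 2.02% and 2.13% of microglial UMIs after sham surgery and 2.79% and 2.83% after injury. C1qa held between 35.7% and 38.3% of the C1q UMIs, C1qb between 33.9% and 36.2% and C1qc between 27.3% and 28.1% in these 4 sums, so the mix of chains moved little as the total differed.

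C3, the central component of the cascade, and C4b, which acts one step before it, were scarce in microglia, and nearly all of their microglial UMIs came from the injured libraries. C3 gave 5 UMIs and 10 UMIs in the sham libraries against 248 UMIs and 234 UMIs in the injured ones. These counts correspond to 0.581, 11.1, 0.869 and 10.6 CPM. Of the 10 UMIs in the knockout-labelled sham library, 7 came from 1 cell. C3 was 19.1-fold (8.08 to 59.4) higher after injury in the wild-type pair and 12.2-fold (6.53 to 25.8) in the knockout-labelled pair. C4b gave 10 UMIs and 5 UMIs after sham surgery against 275 UMIs and 152 UMIs after injury, that is 1.16, 12.3, 0.434 and 6.90 CPM. C4b was 10.6-fold (5.68 to 22.3) higher after injury in the wild-type pair and 15.9-fold (6.66 to 49.6) in the knockout-labelled pair. At no more than 12.3 CPM both genes were under the filter and entered no count of calls.

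C3 was found in few microglia even after injury. The shares of microglia with a C3 UMI were 0.654%, 9.86%, 0.342% and 8.12%, at median depths of 8429.5, 9111, 8467 and 8733 UMIs. The shares with a C4b UMI were 0.916%, 9.51%, 0.427% and 5.04%. With every cell thinned to 2000 UMIs, which left out 98, 97, 119 and 138 shallower microglia, C3 was seen in 0.300%, 2.20%, 0% and 2.47% of cells. C4b was then seen in 0%, 2.77%, 0% and 1.26%, where 0 of 666 and 0 of 1052 sham cells allow shares of up to 0.552% and 0.350% (exact upper bounds). In endothelial cells, which served as background, 0 of 25, 0 of 70, 0 of 39 and 1 of 121 cells had a C3 UMI at median depths of 5614, 4448, 5864 and 4264 UMIs. By the same bound these counts of 0 allow C3 shares of up to 13.7%, 5.13% and 9.03%. C4b was likewise seen in 0, 1, 0 and 2 endothelial cells. Over the 9 members, the share of microglia with a UMI was higher in both injured than in both sham libraries for 6, and for 4 after thinning. The same count was not made over all genes, so it does not set the members apart from other genes. Up to 10 C4b UMIs came from 1 cell of the wild-type injured library.

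The receptors of the small fragments differed much less after injury. C3ar1, the C3a receptor, stood at 296, 313, 257 and 298 CPM in microglia. The ratio of injury to sham was 1.06 (1.01 to 1.11) in the wild-type pair and 1.16 (1.11 to 1.21) in the knockout-labelled pair. Without a microglial cluster led by Cd5l and Spp1, of which the wild-type injured library gave 318 cells and the knockout-labelled injured library 36, the wild-type ratio was 0.946. C5ar1, the C5a receptor, stood at 103, 118, 116 and 118 CPM, with ratios of 1.15 (1.06 to 1.24) and 1.01 (0.947 to 1.08).

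Itgam was lower in microglia after injury under both labels. The level of Itgam was 612 CPM and 578 CPM after sham surgery and 334 CPM and 415 CPM after injury, so both injured libraries lay below both sham libraries. Its ratio was 0.546 (0.527 to 0.565) in the wild-type pair and 0.718 (0.696 to 0.741) in the knockout-labelled pair. Without the Cd5l and Spp1 cluster these ratios were 0.632 and 0.726. Itgam encodes CD11b, the antigen with which the cells were selected, so low-CD11b cells may be missing from every library; the effect of this on the ratios was not tested. Itgb2, its partner chain, stood at 245, 211, 249.8 and 250.1 CPM, with ratios of 0.860 (0.817 to 0.906) and 1.00 (0.957 to 1.05).

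**Figure D1:**
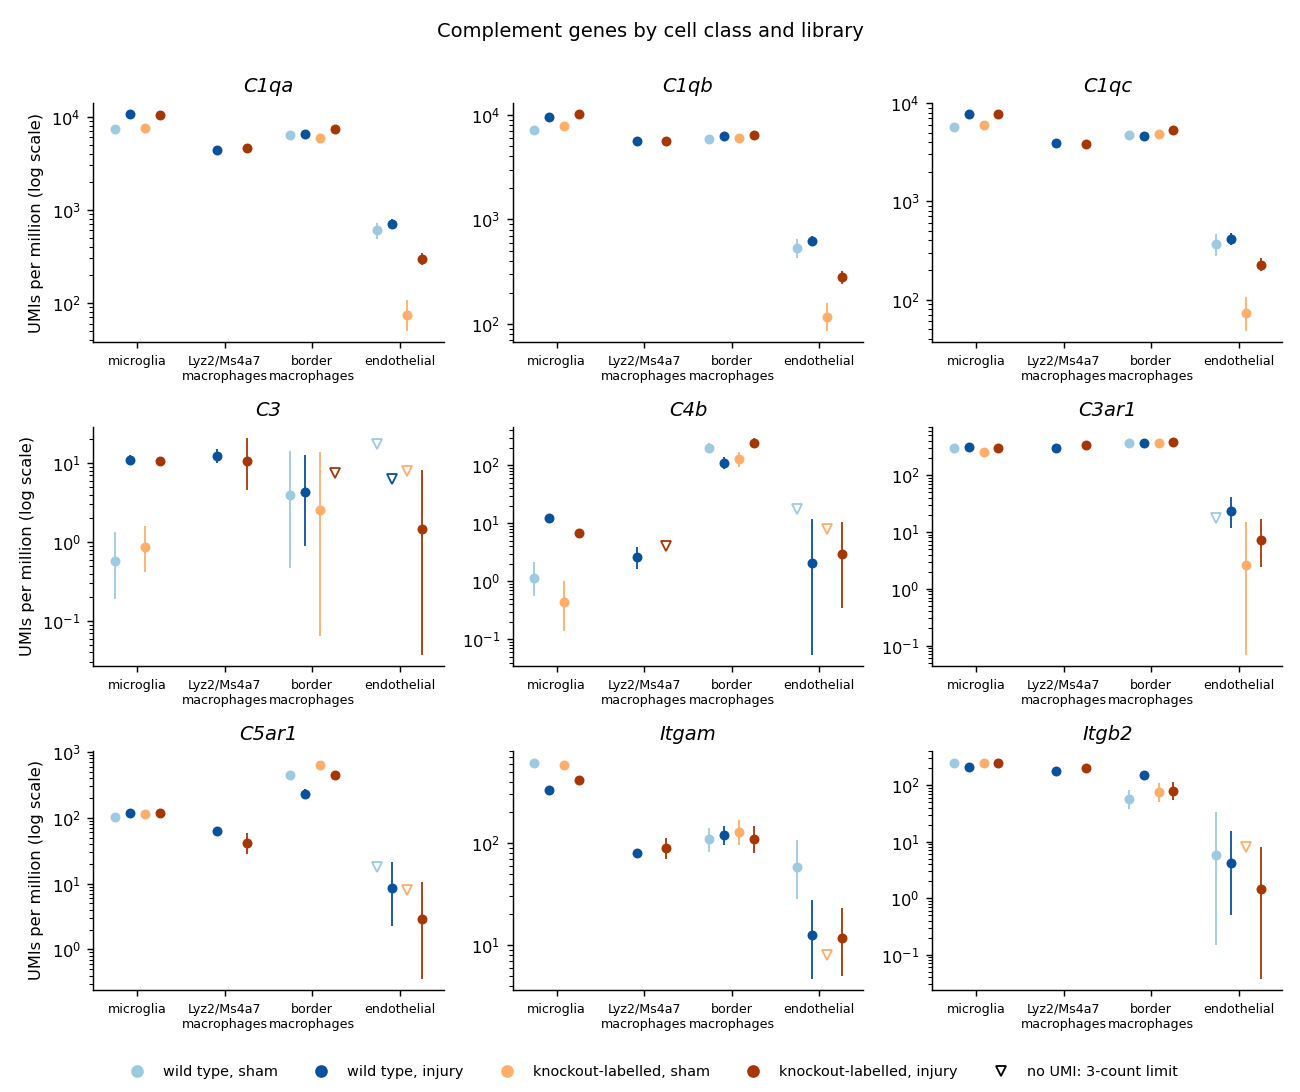
CPM of the 9 members on a logarithmic axis, by class and library, with exact Poisson 95% intervals as bars. Open triangles mark the limit that a count of 0 allows, and sums of few cells (Lyz2/Ms4a7 macrophages after sham) are left out. In microglia C3 and C4b lie near 1 CPM in the sham libraries and near 10 CPM in the injured ones, while the C1q genes lie between 5639 and 10683 CPM.

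No member with enough counts was called changed by injury in microglia. Of 7 members tested, 0 were called in the wild-type pair, where 13.0% of 6256 genes were called (3.96% higher and 9.02% lower). Likewise 0 of 7 were called in the knockout-labelled pair, where 4.25% of 6140 genes were called (2.61% higher and 1.64% lower). The median log2 ratio of the tested members was 0.18 and 0.21, beside -0.31 and -0.21 over all genes tested. The scaling mattered for this reading. With median-of-ratios scaling in place of totals, the all-gene medians were 0.20 and 0.12, and the share of calls that were higher went from 30.5% to 86.9% in the wild-type pair and from 61.3% to 91.2% in the knockout-labelled pair. On that scale C1qa (2.13-fold) and C1qc (2.01-fold) were called higher in the wild-type pair, where 635 of 6170 genes were called higher and 96 lower. Itgam stood at 0.80 and 0.937, and Itgb2 was 1.26-fold higher in the wild-type pair, the opposite direction. C3ar1 was 1.55-fold and 1.51-fold higher and C5ar1 1.68-fold and 1.32-fold higher, so the small ratios of these receptors also depend on the scaling.

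**Figure D2:**
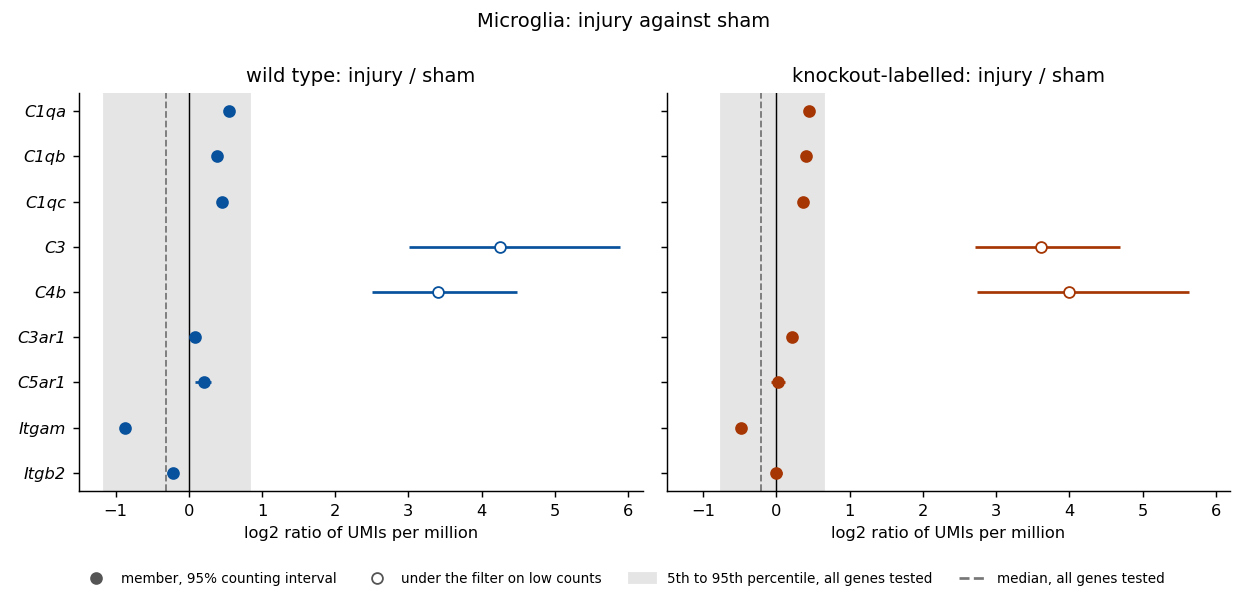
Ratios of injured to sham CPM for the 9 members in microglia on a log2 axis, for the wild-type and the knockout-labelled pair, with exact conditional 95% intervals. Open points are under the filter on low counts, the grey band spans the 5th to 95th percentile of all genes tested and the dashed line is their median. C3 and C4b lie 10.6-fold to 19.1-fold above 1, the C1q genes between 1.29 and 1.46, and Itgam below 1 in both pairs.

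Between the labels, the members in microglia lay within 1.24-fold of each other after injury, apart from C4b. After injury 0 of 7 tested members were called between the labels (0.721% of 5412 genes were called), and after sham surgery 0 of 7 (0.163% of 6145). C3 was 0.957-fold (0.797 to 1.15) the wild-type level in the knockout-labelled injured library. C4b was 0.561-fold (0.457 to 0.686), from 6.90 CPM against 12.3 CPM, and 0.496-fold without the Cd5l and Spp1 cluster. After sham surgery the C4b ratio was 0.374 (0.100 to 1.20) on 5 and 10 UMIs, which counting error alone does not separate from 1. Itgam was 1.24-fold (1.20 to 1.28) the wild-type level after injury, and 1.08-fold without the Cd5l and Spp1 cluster. Itgb2 was 1.19-fold (1.14 to 1.24), and the C1q and anaphylatoxin receptor genes lay between 0.951 and 1.08. The difference between the injury ratios of the labels was not tested.

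Markers moved with these comparisons too. In the microglial class the summed level of its 9 own markers was 9568, 5559, 10794 and 7143 CPM, and that of the Lyz2 and Ms4a7 macrophage list was 449, 2674, 384 and 1474 CPM. A list of neuronal genes summed to 241, 23.6, 271 and 31.7 CPM. The cells also came from different clusters: clusters led by Slc5a3 and Hbegf and by Hspa1b and Slc2a5 held most sham microglia, while in the injured libraries a cluster led by Il1a and Rrad held the most (393 and 605 cells). The part of these differences in the ratios was not tested, apart from the values given without the Cd5l and Spp1 cluster.

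Clusters with microglia of every library let the members be compared within a cluster. In the Slc5a3 and Hbegf cluster, Itgam stood at 629 CPM and 607 CPM after sham surgery and at 435 CPM and 447 CPM after injury. The Hspa1b and Slc2a5 cluster, whose leading genes include the homeostatic markers P2ry12 and Tmem119, gave Itgam at 635 CPM and 575 CPM after sham surgery and at 506 CPM and 495 CPM after injury. Itgam was therefore lower after injury within each of these clusters as well. C1qa in the Slc5a3 and Hbegf cluster stood at 7059.9, 7830.0, 7123 and 8160.5 CPM, higher after injury under both labels. In the Hspa1b and Slc2a5 cluster C1qa stood at 8862, 8573, 8660.0 and 9274 CPM, which was lower after injury in the wild-type pair and higher in the knockout-labelled pair. C5ar1 in the Hspa1b and Slc2a5 cluster was 84.7, 59.3, 105 and 68.1 CPM, lower after injury under both labels. A shallow cluster led by Cst7 and Mbp held 52, 71, 77 and 198 microglia. There C5ar1 stood at 29.6 (8.06 to 75.7), 103 (66.6 to 152), 41.3 (16.6 to 85.1) and 61.8 (43.3 to 85.5) CPM on 4, 25, 7 and 36 UMIs. No interval of the ratio was computed there, and overlap of single intervals does not settle whether counting error separates a ratio from 1. C3ar1 stood at 73.9, 173, 59.0 and 168 CPM on 10, 42, 10 and 98 UMIs. Itgam stood at 458, 292, 554 and 271 CPM and C1qa at 9108, 12040.3, 9324 and 11191 CPM in that cluster.

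C3 and C4b left few UMIs within single clusters of this kind, and their difference after injury was not seen in every one. In the Slc5a3 and Hbegf cluster C3 gave 5, 1, 7 and 4 UMIs, that is 0.967, 1.79, 1.27 and 4.71 CPM. C4b there gave 8, 0, 3 and 3 UMIs, that is 1.55, 0, 0.542 and 3.54 CPM, where the count of 0 allows up to 6.61 CPM. In the Hspa1b and Slc2a5 cluster C3 gave 0, 2, 1 and 6 UMIs and C4b 0, 12, 1 and 6 UMIs. The 12 UMIs correspond to 13.4 CPM of C4b in the wild-type injured library, and the 6 UMIs of each gene to 3.65 CPM in the knockout-labelled one.

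Among microglia of the wild-type injured library, C3 and C4b were highest in a cluster led by interferon-induced genes and in one led by Rcan1 and Hcar2. The clusters were made without the members. In the cluster led by Ifit3 and Ifit2, C3 stood at 21.4 CPM in the wild-type and 19.7 CPM in the knockout-labelled injured library, and C4b at 34.9 CPM and 14.9 CPM. In the Rcan1 and Hcar2 cluster, C3 stood at 21.2 CPM and 13.5 CPM and C4b at 31.3 CPM and 9.28 CPM. In the knockout-labelled library the cluster led by Ifi27l2a and Lag3 had more C4b than that, at 11.7 CPM. The proliferating cluster led by Ube2c and Top2a had C3 at 17.3 CPM but C4b at 1.92 CPM in the wild-type injured library, so the 2 genes did not have the same order across clusters. The Slc5a3 and Hbegf cluster was at the low end for injured cells, with C3 at 1.79 CPM and 4.71 CPM and C4b at 0 CPM and 3.54 CPM.

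The other members had different orders across the same clusters. In the wild-type injured library C3ar1 was highest in the Cd5l and Spp1 cluster (396 CPM), ahead of the Il1a and Rrad (322 CPM), the Slc5a3 and Hbegf (312 CPM) and the Lpl and Cst7 cluster (294 CPM). In the knockout-labelled injured library the Lpl and Cst7 cluster was highest (345 CPM). C3ar1 was lowest in the shallow Cst7 and Mbp cluster of both (173 CPM and 168 CPM). C5ar1 was also highest in the Lpl and Cst7 cluster, at 170.4 CPM and 188 CPM, and lowest in the Ifi27l2a and Lag3 cluster, at 58.5 CPM and 52.4 CPM. That same Ifi27l2a and Lag3 cluster had C1qa at 11601 CPM and 11913 CPM, the highest value in the knockout-labelled library and second in the wild-type one to the Cst7 and Mbp cluster (12040.3 CPM). Itgam was lowest in the Ube2c and Top2a cluster (189 CPM) and the Cd5l and Spp1 cluster (203 CPM) of the wild-type injured library.

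**Figure D3:**
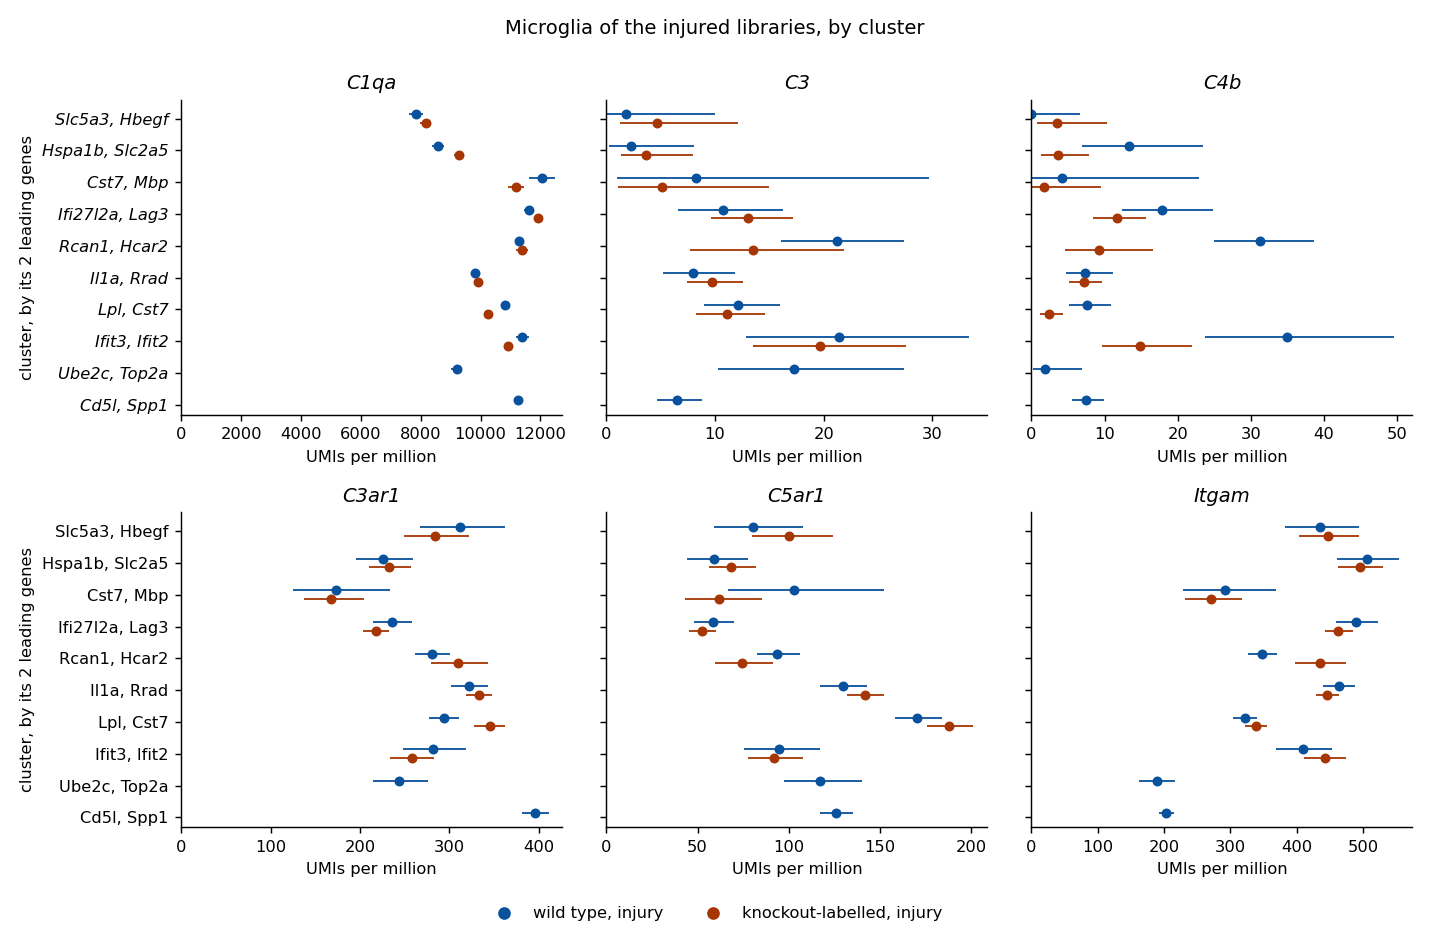
CPM of 6 members in the microglial clusters of both injured libraries, with exact Poisson 95% intervals. In the wild-type library C3 and C4b are highest in the Ifit3 and Ifit2 and the Rcan1 and Hcar2 clusters, and the C4b points of the wild-type library lie above those of the knockout-labelled library there.

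Border macrophages, which sit along vessels and in the meninges, carried C4b and C5ar1 at higher levels than microglia and the integrin chains at lower levels. C4b stood at 201, 111, 126 and 245 CPM in this class. Within each library, border macrophages had 173-, 9.02-, 289.6- and 35.5-fold the microglial C4b level. C5ar1 stood at 449, 231, 629 and 442 CPM, or 4.36-, 1.95-, 5.41- and 3.76-fold the microglial level. Itgam was 0.178-, 0.358-, 0.222- and 0.265-fold and Itgb2 0.231-, 0.705-, 0.302- and 0.320-fold. C3ar1 was 1.26-, 1.16-, 1.45- and 1.31-fold and C1qa 0.861-, 0.601-, 0.781- and 0.706-fold the microglial level. Of 8 members tested, 2 were called higher and 2 lower in 3 of the libraries, and 1 higher and 1 lower in the wild-type injured one. C4b stood at no more than 12.3 CPM in microglia, so it passed the filter on low counts only through the border class. The shares of all genes called were 16.2%, 10.8%, 15.3% and 15.3% in the order of the libraries. Those called higher made up 6.23%, 5.67%, 6.40% and 8.23%, and those called lower 10.0%, 5.10%, 8.89% and 7.12%. The values of the wild-type injured library rest in part on 19 cells described next. C4b was far from evenly spread over the classes: border macrophages held 35.9% of its UMIs with 2.38% of all UMIs, and microglia 48.4% with 76.5% of all UMIs.

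**Figure D4:**
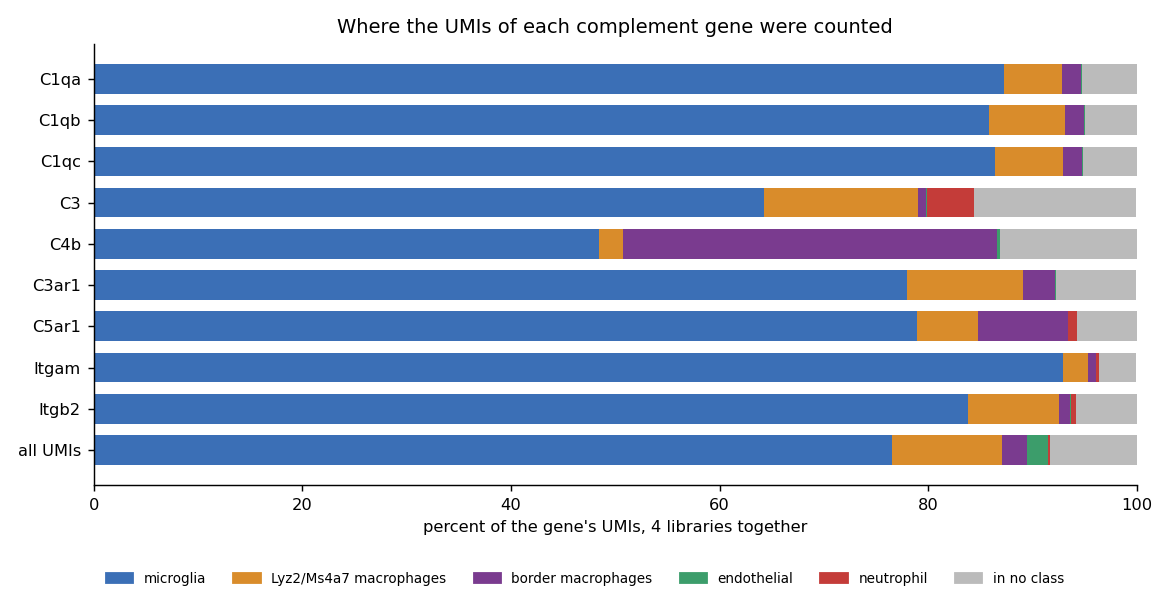
Share of each member's UMIs that came from each class, over the 4 libraries, in percent. Microglia hold 87.3% of C1qa and 92.9% of Itgam, but 48.4% of C4b, where border macrophages hold 35.9%.

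The wild-type injured border class was not made up like the others. Of its 73 cells, 19 fell in a cluster led by Lyz2 and Gpnmb that also carried Ms4a7, and with a median of 22661 UMIs they held 56.5% of the UMIs of the class. In the knockout-labelled injured library such cells held 5.27%. In those 19 cells C4b stood at 5.10 CPM, C5ar1 at 91.8 CPM and Itgb2 at 196 CPM. Ratios of the members are therefore also given for the 72, 52, 56 and 56 cells of the class in the cluster led by Ccl7 and Mrc1. In those cells of the wild-type injured library C4b was 21.2-fold (16.2 to 27.5), C5ar1 3.57-fold (2.95 to 4.28), Itgam 0.417-fold (0.298 to 0.568) and Itgb2 0.430-fold (0.281 to 0.631) the microglial level. There, 2 of 8 members were called higher and 2 lower in each of the 4 libraries, beside 6.01% to 11.4% of all genes called higher and 6.75% to 10.5% called lower.

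Over the whole class, C4b after injury was 0.552-fold (0.406 to 0.749) the sham level in the wild-type pair and 1.95-fold (1.37 to 2.79) in the knockout-labelled pair. In the Ccl7 and Mrc1 cluster C4b stood at 208, 261, 136 and 258 CPM. There the ratios were 1.26 (0.920 to 1.71) and 1.91 (1.34 to 2.73), both above 1. Itgb2 was 2.62-fold (1.72 to 4.11) higher after injury in the wild-type pair over the whole class. In the Ccl7 and Mrc1 cluster it stood at 58.6, 90.6, 73.3 and 84.4 CPM, with ratios of 1.55 (0.875 to 2.72) and 1.15 (0.669 to 2.00). C5ar1 was 0.514-fold and 0.703-fold after injury over the whole class. In the Ccl7 and Mrc1 cluster it stood at 460.5, 422, 659 and 448 CPM, with ratios of 0.916 (0.728 to 1.15) and 0.680 (0.556 to 0.831). C1qa in the Ccl7 and Mrc1 cluster was 1.10-fold and 1.22-fold after injury, and Itgam 1.28-fold (0.827 to 1.96) and 0.949-fold (0.606 to 1.49). The ratios of C1qb were 1.04 and 1.06 there, those of C1qc 1.04 and 1.12, and those of C3ar1 1.07 (0.840 to 1.36) and 0.992 (0.783 to 1.26).

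Over the whole class 1 of 8 tested members (Itgb2) was called in the wild-type pair, where 9.86% of genes were called, and 0 of 8 in the knockout-labelled pair, where 3.04% were. Between the labels after injury 1 of 8 (C4b, 2.21-fold, 1.62 to 3.01) was called beside 7.18% of genes, and after sham surgery 0 of 8 beside 2.19%. In the Ccl7 and Mrc1 cluster the C4b ratio of the labels was 0.989 (0.725 to 1.35) after injury and 0.652 (0.456 to 0.923) after sham surgery. Without the Lyz2 and Gpnmb cells no member was called in the wild-type pair or between the labels after injury.

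**Figure D5:**
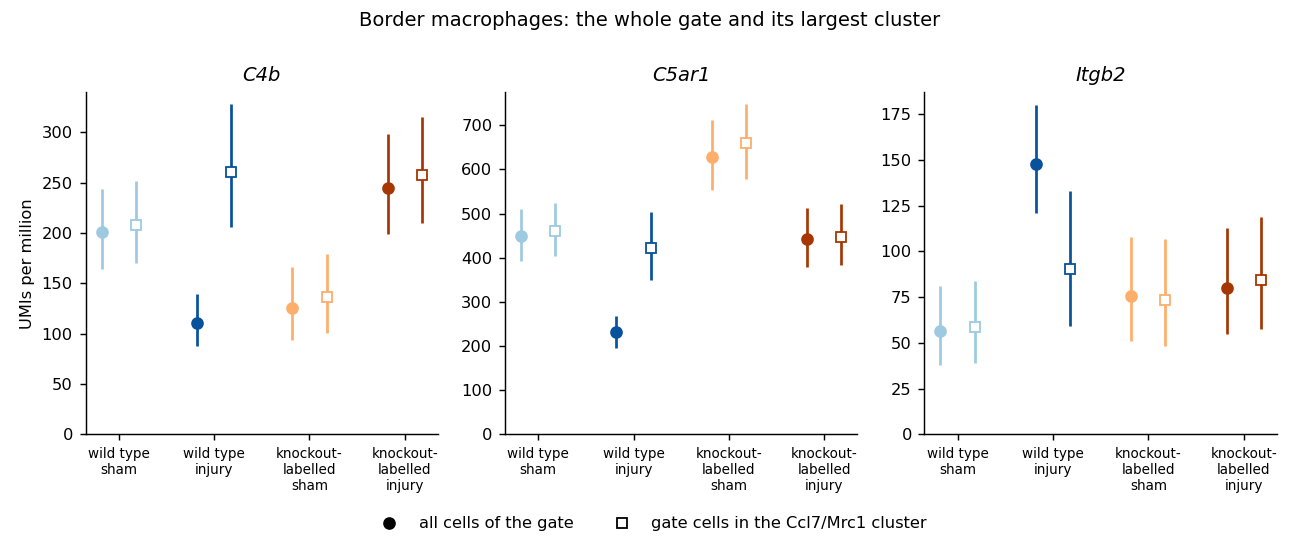
CPM of C4b, C5ar1 and Itgb2 in border macrophages by library, for the whole class (circles) and for its cells in the Ccl7 and Mrc1 cluster (squares), with exact Poisson 95% intervals. In the wild-type injured library C4b is at 111 CPM over the class and 261 CPM in that cluster, while in the other libraries circles and squares lie close together.

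Macrophages marked by Lyz2 and Ms4a7 were seen almost only after injury, with 441 cells and 52 cells in the injured and 4 and 2 in the sham libraries, so they were compared only after injury. They carried C1q at lower levels than microglia and with C1qb as the most abundant chain. C1qb stood at 5661 CPM and 5648 CPM, C1qa at 4335 CPM and 4643 CPM, and C1qc at 3906 CPM and 3787 CPM in the wild-type and knockout-labelled injured library. C1qb made up 40.7% and 40.1% of their C1q UMIs. Against microglia of the same library, C1qa was 0.406-fold (0.401 to 0.410) and 0.449-fold (0.434 to 0.464), and Itgam 0.239-fold (0.221 to 0.259) and 0.215-fold (0.167 to 0.274). In the knockout-labelled library C1qc (0.491-fold) and C5ar1 (0.351-fold) were also called lower. That made 2 of 7 tested members lower in the wild-type library, where 11.5% of genes were called (7.33% lower), and 4 of 7 in the knockout-labelled library, where 14.0% were (9.37% lower).

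C3 and C3ar1 in these macrophages were near the microglial levels. C3 stood at 12.2 CPM and 10.7 CPM, or 1.10-fold (0.862 to 1.39) and 1.00-fold (0.428 to 2.01) the microglial level. C3ar1 stood at 304 CPM and 335 CPM, or 0.970-fold (0.926 to 1.02) and 1.12-fold (0.986 to 1.27). C4b gave 21 UMIs (2.59 CPM) of 8110373 and 0 UMIs of 750160. The wild-type value was 0.210-fold (0.128 to 0.328) the microglial level, and the count of 0 allows up to 0.721-fold. Between the labels 0 of 7 tested members were called, beside 1.76% of genes. C5ar1 was 0.653-fold (0.439 to 0.939) in the knockout-labelled library, from 41.3 CPM against 63.3 CPM.

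Endothelial cells, used here as background, had C1q at a few percent of the microglial level. C1qa was 8.17%, 6.63%, 0.982% and 2.86% of the microglial level, and Cst3, the cystatin C gene, which is abundant in microglia, was at 10.9%, 10.7%, 4.47% and 6.74%. One cell held 151 of the 336 C1qa UMIs of the wild-type injured library. Between the labels after injury C1qa and C1qb were called lower (2 of 3 tested members, beside 0.879% of genes), and neither was called without the barcodes shared between libraries. These C1q values were used as a background level, and their source was not tested.

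Neutrophils, the reference class of few cells (12, 29, 5 and 7), had the highest C3 of the classes, at 230.3, 275, 144 and 249.8 CPM. Their C3 levels rest on only 11, 15, 4 and 5 UMIs, and their C5ar1 levels on 33, 32, 12 and 5 UMIs. Their C5ar1 level was 691, 586, 431 and 249.8 CPM, their Itgam level 502, 385, 431 and 449.7 CPM, and their Itgb2 level 607, 422, 863 and 499.7 CPM. They held 4.53% of all C3 UMIs with 0.178% of all UMIs, while microglia held 64.3% and the Lyz2 and Ms4a7 macrophages 14.7%.

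A list of 46 other complement genes placed the members in their pathway. In microglia 8 of these were tested in the wild-type pair, of which 1 was called higher and 2 lower, and 8 in the knockout-labelled pair, of which 1 was called higher and 0 lower. Over all genes tested, 3.96% were called higher and 9.02% lower in the wild-type pair. The shares in the knockout-labelled pair were 2.61% and 1.64%. C5ar2, the second C5a receptor, stood at 66.9, 22.6, 67.1 and 28.9 CPM and was called lower (0.338-fold) in the wild-type pair. Itgax, the alpha chain of complement receptor 4, stood at 5.92, 23.0, 6.86 and 36.0 CPM and was called higher in both pairs, 3.88-fold (2.91 to 5.29) and 5.25-fold (4.16 to 6.71). Itgax passed the filter on low counts only through the injured libraries. Calr, which encodes calreticulin, a binding partner of C1q, stood at 827, 763, 839 and 817 CPM. Lrp1, a scavenger receptor, stood at 299, 228, 303 and 226 CPM, Itgb1 at 168, 109, 163 and 120.2 CPM, C1qbp at 69.8, 90.1, 82.8 and 93.8 CPM and Cr1l at 82.1, 63.6, 80.6 and 70.0 CPM; none of these 5 was called. Between the labels 0 of 8 were called after injury and 0 of 7 after sham surgery, beside 0.721% and 0.163% of all genes.

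Several genes of the list were higher in border macrophages than in microglia. Of the list, 12, 13, 10 and 12 genes were tested against microglia, and 5, 5, 3 and 4 of them were called higher, beside 6.23%, 5.67%, 6.40% and 8.23% of all genes. In each library 1 was called lower. In the cells of the Ccl7 and Mrc1 cluster 12, 14, 10 and 12 were tested, and 5, 8, 3 and 4 were called higher. Over all genes tested in those cells, 6.01% to 11.4% were called higher, with the largest share in the wild-type injured library. Cfp, which encodes properdin, a stabiliser of the alternative pathway convertase, stood at 176, 208, 219 and 185 CPM in border macrophages. Fcna, which encodes the lectin ficolin A, stood at 168, 96.6, 141 and 202 CPM, and the scavenger collectin Colec12 at 150.3, 119.7, 169 and 182 CPM. Cfp, Fcna and Colec12 were called higher in all 4 libraries. C2, which pairs with C4b in the classical convertase, was called higher in 3 of them. It stood at 93.7, 72.1 and 94.9 CPM in the wild-type sham, wild-type injured and knockout-labelled injured library. In the knockout-labelled sham library C2 was under the filter on low counts and was not tested. C2 stood at 103 CPM there in the cells of the Ccl7 and Mrc1 cluster. Cd55, a decay accelerator, was called higher in the wild-type sham library (62.5 CPM) and Cd93 in the wild-type injured one (83.6 CPM). In the cells of the Ccl7 and Mrc1 cluster Cd55 stood at 62.6, 62.7, 16.3 and 23.7 CPM. Cd93 stood there at 90.9, 76.7, 84.1 and 71.2 CPM. Among those cells, each gene passed the filter on low counts against microglia only in the library named for its call. The gene called lower over the whole class was Lrp1 in the sham libraries and Itgax in the injured ones.

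Over the whole border class, 13 list genes were tested after injury in the wild-type pair, where 9.86% of all genes were called. Lrp1 (2.50-fold) was called higher and C5ar2 (0.377-fold) lower there, in the comparison in which 19 cells held most UMIs. In the Ccl7 and Mrc1 cluster those ratios were 1.11 (0.658 to 1.84) and 0.759 (0.438 to 1.28), and 0 of 13 list genes were called. Of all genes tested there, 1.56% were called higher and 2.46% lower. No list gene was called in the knockout-labelled pair, over the class or in that cluster. Over the class 3.04% of all genes were called in this pair, and in the cluster 1.51% were called higher and 1.25% lower. Between the labels 0 of 13 were called after injury over the class, and after sham surgery Cd55 was called lower (0.242-fold, 0.0826 to 0.586). The shares of all genes called over the class were 7.18% after injury and 2.19% after sham surgery. In the Ccl7 and Mrc1 cluster Cd55 was called lower after sham surgery (0.260-fold, 0.0887 to 0.633) and after injury (0.378-fold, 0.150 to 0.887). Of all genes tested there, 1.30% were called lower after sham surgery and 1.77% after injury.

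Lyz2 and Ms4a7 macrophages also had some genes of the list above the microglial level. Against microglia, Cfp (87.0 CPM against 2.19 CPM), Cd93 (143 CPM against 1.84 CPM) and Rgcc (28.1 CPM against 3.13 CPM) were called higher in the wild-type injured library, and Cd93 and Rgcc in the knockout-labelled one. C5ar2 was called lower in the knockout-labelled one (0.185-fold). Between the labels Cfp was the 1 of 11 tested list genes called, at 17.3 CPM against 87.0 CPM (0.199-fold, 0.105 to 0.343), beside 1.76% of all genes. The class was made up differently under the labels. The Lyz2 and Gpnmb cluster held 405 of its 441 wild-type and 35 of its 52 knockout-labelled cells, and the Ccl7 and Mrc1 cluster, in which border macrophages carried Cfp, held 2 and 9. Its own marker list summed to 45898 CPM against 30904 CPM, and the border macrophage list to 629 CPM against 213 CPM. In the cells of the Lyz2 and Gpnmb cluster alone, Cfp stood at 90.1 CPM (83.4 to 97.2) on 664 UMIs and at 8.20 CPM (2.23 to 21.0) on 4 UMIs. Other list genes had their level elsewhere: Cd59a, an inhibitor of the membrane attack complex, at 241, 167, 251 and 162 CPM in endothelial cells, Rgcc at 465, 565, 395 and 628 CPM there, Itgal at 314, 623, 216 and 399.7 CPM in neutrophils, and Clu at 525, 51.8, 914 and 392 CPM in cells of no class. Serping1 reached 76.8 CPM in cells of no class of the wild-type sham library. Cfb passed the level for naming in neutrophils on 1 UMI.

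Genes with the closest pattern were ranked by Pearson correlation of log2(CPM + 10) over 14 class-by-library sums, among 5688 genes. The sums share libraries, so the coefficients are descriptions. C1qa was most like Aif1 (0.992), Cd53 (0.987) and Fcgr3 (0.987). C4b was most like Fcna (0.983), Dok2 (0.982) and Cd163 (0.978). C3ar1 was most like Cebpb (0.992), Plekho2 (0.989) and Mitf (0.988). C3, which did not exceed 12.2 CPM in these sums, was most like Rpl24 (0.931), Rps2 (0.921) and Slc7a11 (0.919).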

How the data were processed

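Brain cells from 4 samples were profiled with the 10x Genomics 3′ v3 chemistry. The values, as deposited, are raw counts of UMIs for each gene in each barcode, and the submitters' processing notes name Cell Ranger 6.0.1 and mm10. The sources used here do not name the annotation release. A 3′ count is 1 tag per molecule and was not divided by gene length.

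A barcode was kept (8018 of 16040) if it had 500 genes or more, 1000 UMIs or more and a mitochondrial share of no more than 10%. The cells with the highest Scrublet scores were left out at 0.8% per 1000 barcodes (152 cells). Cells were classed by summed marker UMIs per 10000, with thresholds set after the marker distributions were seen: microglia at least 20, Lyz2/Ms4a7 macrophages at least 100, border macrophages at least 20 and above the microglial sum, endothelial cells and neutrophils at least 50. Another 645 cells had no class. Within 1.5-fold of their threshold lay 280 microglia, 29 Lyz2/Ms4a7 macrophages, 26 border macrophages and 0 endothelial cells. Leiden clustering (scanpy 1.11.5, resolution 1, 2000 variable genes, 30 components, 15 neighbours) left out the members and the other complement genes.

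Ratios carry exact conditional binomial intervals and shares exact Clopper-Pearson intervals. A class entered a comparison with 50 cells or more on each side. The floor for a count of 0 was 3 counts. The ratio and interval code was tested on simulated data. The members and lists were chosen with earlier results of these data known. Named beside the members were list genes called in a comparison or with at least 50 CPM in a class and library, and the 3 most similar genes of C1qa, C3, C4b and C3ar1. A model of injury across both labels was not run. Some genes are not reported here, although counts over lists include them.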

Additional observations from a re-analysis of the deposited data

Results flagged for a closer look

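In border macrophages the injury ratios of C4b pointed in opposite directions under the labels, 0.552 in the wild-type and 1.95 in the knockout-labelled pair, a difference of 1.71 on the log2 scale (knockout-labelled minus wild type). Fcna, the ficolin A gene, did so too, with 0.575 and 1.44, a difference of 1.23. Neither difference was tested, since each ratio comes from 1 library per group. For C4b the opposite direction is not seen in the cells of the Ccl7 and Mrc1 cluster, with ratios of 1.26 and 1.91, and for Fcna they were 1.22 (0.860 to 1.72) and 1.41 (0.988 to 2.01) there.

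Some cells in no class had more of a member than any of the 4 classes. C3 stood at 44.4 CPM (32.0 to 60.0) in the cluster led by the MHC class II genes H2-Aa and H2-Eb1, with 42 UMIs in 16 of 107 cells, and at 21.7 CPM in unclassed cells of the Lyz2 and Gpnmb cluster. C3ar1 stood at 431 CPM in unclassed cells of the Cd5l and Spp1 cluster. C3ar1 also stood at 738 CPM in unclassed cells of a shallow cluster, on 95 UMIs in 43 of 86 cells with a median of 1392 UMIs per cell.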

How the results depend on the processing

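Of 682 member values recomputed under alternatives, 481 moved by less than their counting interval, 178 moved by more and 23 changed direction. C3 and C4b kept their direction in microglia under the alternatives run, at 7.70 to 28.0-fold and 4.51 to 28.3-fold in the wild-type pair and 11.7 to 44.2-fold and 5.94 to 27.4-fold in the knockout-labelled pair; Itgam kept its direction too, at 0.511 to 0.80-fold and 0.677 to 0.937-fold. In wild-type microglia median-of-ratios scaling called 2 members after injury instead of 0, beside 635 of 6170 genes called higher and 96 lower. In border macrophages the wild-type injury count was 0 on thinned counts and without the Lyz2 and Gpnmb cluster. The knockout-labelled count was 1 on thinned counts and with classes taken from clusters. Thinned, 50 of 1278 genes were called higher and 50 lower, and from clusters 195 of 5616 higher and 105 lower. The count between labels after injury was 0 with equal weights, thinned, from clusters, without doublet removal and without the Lyz2 and Gpnmb cluster. In endothelial cells the count between labels was 0 with equal weights, thinned or without shared barcodes, and 1 without doublet removal. In the last setting 17 of 5241 genes were called higher and 25 lower.

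The changes of direction counted are those of values whose counting interval excludes 1; another 58 values, whose interval holds 1, crossed it under an alternative. The log2 ratios that changed direction were, in microglia after injury in the wild-type pair, Itgb2 (0.33, median-of-ratios) and C3ar1 (-0.12 with classes from clusters, -0.08 without the Cd5l and Spp1 cluster). Between labels after injury they were C1qb (-0.02, median-of-ratios), C1qa (0.01, clusters) and C3ar1 (0.05, clusters, and 0.04 without the Cd5l and Spp1 cluster), and after sham Itgam (0.02 with equal weights, 0.08 thinned). In border macrophages with classes from clusters they were C1qb (-0.23), C4b (0.43) and Itgb2 (-1.12) in the wild-type pair, C1qc (0.00) in the knockout-labelled pair, C4b (-0.27) and Itgb2 (0.98) between labels after injury, and C1qa (0.05) after sham. Without the Lyz2 and Gpnmb cluster wild-type C4b was 0.31. Between labels after injury, median-of-ratios scaling gave C1qa (-0.06) and C1qc (-0.04), and thinning gave C5ar1 (-0.19). C1qa in Lyz2/Ms4a7 macrophages was -0.13 from clusters, and endothelial C3ar1 was 0.82 thinned and 0.69 without shared barcodes. The cause of these changes was not tested.

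The alternatives for classes other than microglia, and those without shared barcodes or without a named cluster, were chosen after seeing the data. A stricter cell filter was not run where under 50 cells were left. No paired analysis was possible because the labels give no numbers that pair the samples and each group has 1 library; an additive fit of label and injury over the 4 libraries was not run. Depth limits C3 and C4b most, with 5 to 10 UMIs in sham microglia.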
